A study of Mus musculus with 6 samples.

Results

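Transcripts of 9 genes of myelin and of maturing oligodendrocytes were followed in 6 mouse cells: Mbp, Mag, Mog, Mobp, Cnp, Cldn11, Mal, Gpr17 and Myrf. They were chosen by name, and all 9 were found among the 44804 gene rows used. The cells were 3 circulating tumor cells (CTCs), tumor cells recovered from blood, and 3 tumor cells, whose titles carry the ending GBM. Mice 1157, 1168 and PDGF1 each gave 1 CTC and 1 tumor cell, so each group was 3 cells from 3 animals. The labels used here give no genotype, strain, age, treatment or tumor model for any mouse, and only the CTC source label has the words single cell, while the series text counts 6 single cells.

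Oligodendrocytes are the cells that wrap axons of the brain and spinal cord in myelin. They arise from dividing progenitors, pass through a short premyelinating stage marked by the receptor Gpr17, and then switch on myelin genes under the transcription factor Myrf, acting with Olig2 and Sox10. Gliomas of the mouse often resemble the progenitor stage, with strong Olig2 and little of the mature program. The genes studied cover that late program: structural proteins of myelin, proteins of the myelin surface and of junctions, and regulators of the switch.

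Where 3 values of a group are listed, they follow the order of mice 1157, 1168 and PDGF1. Values are FPKM (fragments scaled by transcript length and library size), after repeated rounds of RNA amplification from each cell. Among single-transcript genes the low FPKM values fell on whole multiples of 1 fragment, and this spacing gave the depth behind each cell. It came to 27260554 to 43098995 fragments for CTCs and 11696376 to 55844585 fragments for tumor cells. Between 88.0% and 93.7% of the values up to 10 fragments lay within 0.1 of a whole number. Amplified fragments are copies, so a fragment count here is not a count of molecules. Both cells of mouse 1168 held 9702 (CTC) and 11239 (tumor cell) genes at 1 FPKM or more, against 1486 to 4078 in the other 4 cells. The FPKM of a cell summed to 236427, 727351 and 46973 for CTCs and to 80273, 615548 and 51239 for tumor cells. The same FPKM is therefore not the same share of the total in each cell. As a measure of background, the 99th percentile of 1447 olfactory and vomeronasal receptor genes of the nose, here called the receptor level, stood at 0.770, 0.149 and 2.70 FPKM for CTCs and 1.95, 1.27 and 7.10 FPKM for tumor cells.

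**Figure D1:**
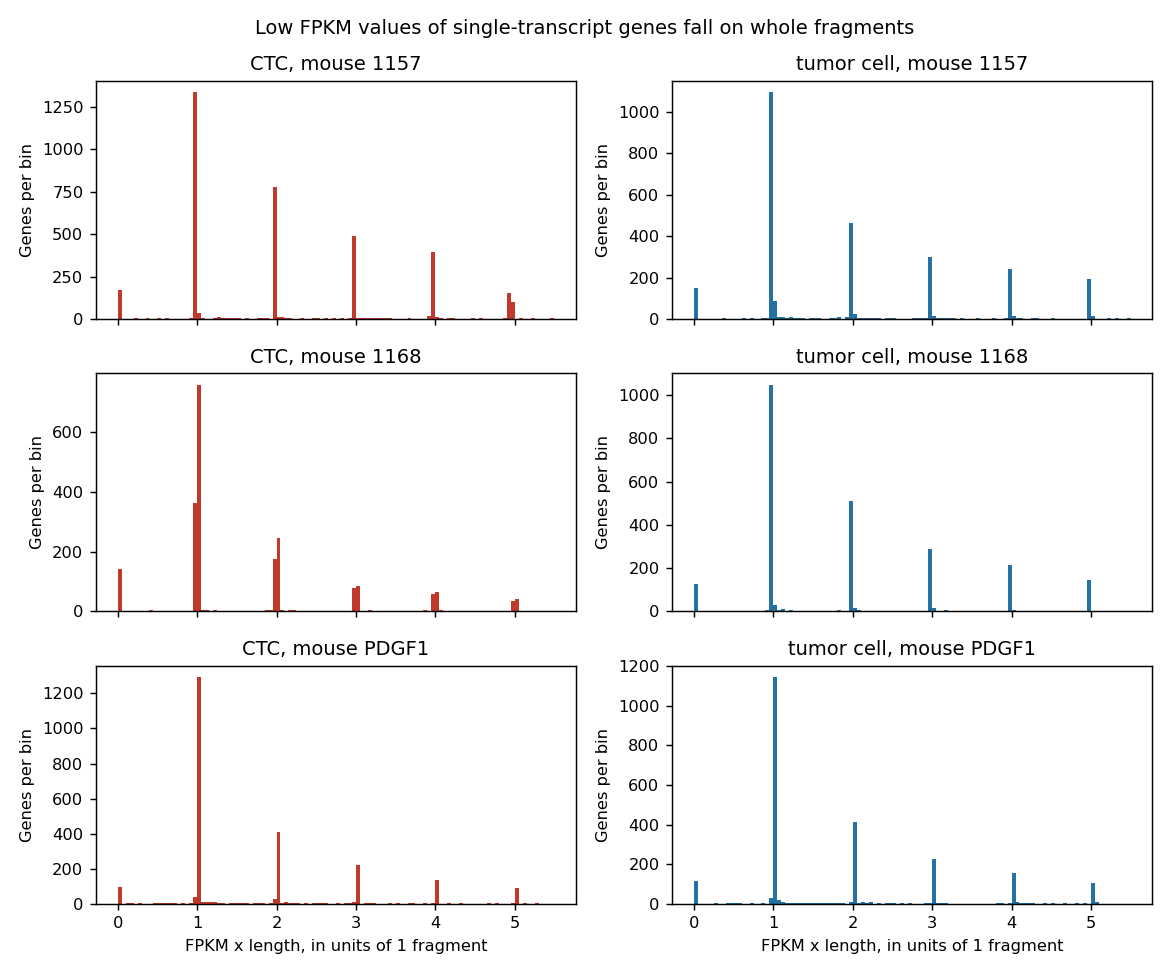
Number of single-transcript genes per bin of 0.05 (vertical axis) against FPKM times transcript length in units of 1 fragment (horizontal axis, up to 5.5 fragments), with CTCs on the left and tumor cells on the right. In all 6 cells the values stand in narrow peaks at 1, 2, 3, 4 and 5 fragments, with another, smaller peak next to 0.

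Clear transcripts of these genes were seen almost only in mouse 1168, and there in both cells. The CTC of mouse 1168 had 5 of the 9 genes above its receptor level (Cnp, Cldn11, Mbp, Mag and Myrf), and its tumor cell had 4 (Cldn11, Cnp, Gpr17 and Mbp). In mouse 1157 the CTC had 0 and the tumor cell had 1, Mobp. In mouse PDGF1 both cells had 0. Of all protein-coding genes, 49.7% (CTC) and 43.7% (tumor cell) stood above the same level in mouse 1168, so 5 of 9 and 4 of 9 are near the share of any coding gene in those cells. For mice 1157 and PDGF1 that share was 12.4% and 2.18% among CTCs, against 7.28% and 1.40% among tumor cells.

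**Figure D2:**
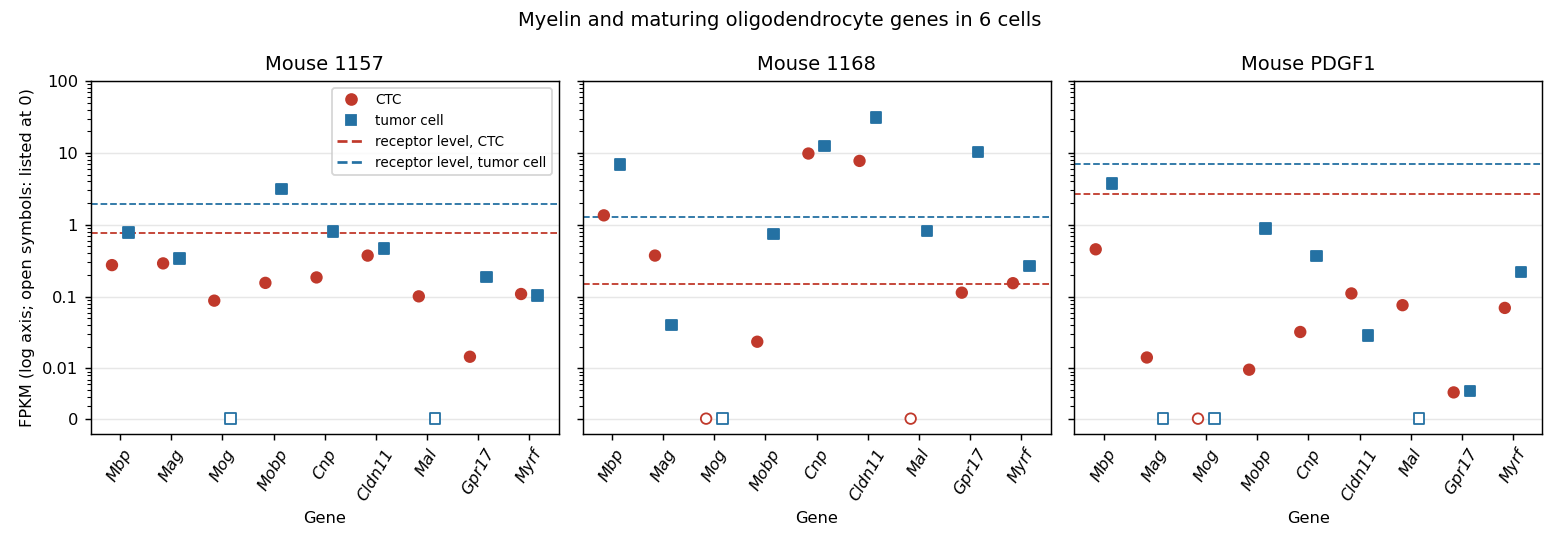
FPKM of the 9 genes (log axis) in the CTC (circles) and tumor cell (squares) of each mouse, with open symbols at the bottom for values listed at 0 and dashed lines at the receptor level of each cell. Symbols above the line of their own cell occur in both cells of mouse 1168 and, for Mobp, in the tumor cell of mouse 1157.

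Mbp, myelin basic protein, is the cytoplasmic protein that holds the layers of compact myelin together. It measured 0.274, 1.35 and 0.455 FPKM in CTCs, against 0.776, 6.87 and 3.76 FPKM in tumor cells. The CTC was the lower cell in each mouse, while the ranges of the groups overlapped, since the CTC of mouse 1168 was above the tumor cell of mouse 1157. The group means were 0.693 ± 0.576 FPKM in CTCs and 3.80 ± 3.05 FPKM in tumor cells (SD, n = 3 each). The value of 3.76 in the tumor cell of mouse PDGF1 stood below that cell's receptor level, although it can hold up to 715 fragments.

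Mobp encodes another small basic protein of compact myelin. It measured 0.155, 0.0235 and 0.00960 FPKM in CTCs, against 3.15, 0.742 and 0.893 FPKM in tumor cells. All 3 CTC values lay below all 3 tumor cell values, which was true of no other gene of the 9 and of 2.88% of the 32679 rows above 0 in any cell. The opposite, all CTC values above all tumor cell values, held for 0 of the 9 and for 0.474% of those rows. The highest Mobp value, in the tumor cell of mouse 1157, was above that cell's receptor level, and the other tumor cell values were not. Mobp has several transcripts in the annotation, so only an upper bound on its fragments can be given from the longest one. The bounds were 13.0, 2.31 and 1.28 fragments for CTCs and 113, 128 and 114 fragments for tumor cells. Exons of Gm38642, on the same strand, cover 1.15% of the exon bases of Mobp, and reads of that stretch cannot be told apart.

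Cldn11, the claudin that seals the layers of myelin as a tight junction, reached the highest value of the set in any cell. It measured 0.372, 7.73 and 0.111 FPKM in CTCs, against 0.466, 31.1 and 0.0289 FPKM in tumor cells. Both cells of mouse 1168 were high and the other 4 cells were below their receptor levels, so the groups overlapped widely. The gene has a single annotated transcript, and its values came to 16.8, 410.2 and 8.01 fragments for CTCs and to 8.93, 2920.0 and 2.01 fragments for tumor cells. Cldn11 lies on the plus strand of chromosome 3 from 31149920 to 31164324 (GRCm38), and no exon of another gene overlaps its own. The 250 bases that end at the base before its start, from RefSeq on GRCm38.p6 (chr3:31149670-31149919, plus strand), are shown because this is the gene of the set with the most fragments, with matches to CCAAT, the box bound by the factor NF-Y, in capitals.

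Cldn11: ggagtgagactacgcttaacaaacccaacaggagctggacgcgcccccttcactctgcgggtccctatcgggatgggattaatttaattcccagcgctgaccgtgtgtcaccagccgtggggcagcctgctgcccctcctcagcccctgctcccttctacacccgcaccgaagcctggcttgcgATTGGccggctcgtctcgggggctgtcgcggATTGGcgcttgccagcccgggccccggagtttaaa

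Both matches read on the minus strand, as ATTGG, from base -66 to -62 and from -35 to -31 before the start. CCAAT was searched on both strands, and 33.8% of the 32851 RefSeq windows of this length held it. ACAAT, the core motif of Sox factors, and CANNTG, the E-box of factors such as Olig2, were searched the same way. Neither had a match in this window, while 27.7% and 66.2% of the windows held them. With only CCAAT matched, no overlap between motifs arose.

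Cnp, an enzyme of the cytoplasmic channels of myelin that is already made by progenitors, was the second gene present in both cells of mouse 1168. It measured 0.185, 9.79 and 0.0321 FPKM in CTCs, against 0.808, 12.5 and 0.369 FPKM in tumor cells. The CTC was lower in each mouse, by 0.61, 0.32 and 0.41 on the log2(FPKM + 1) scale, a scale that understates the change of low values. Exons of Dnajc7, a chaperone gene on the opposite strand, cover 4.23% of the exon bases of Cnp, and the sources used here do not give how strand was used in counting. In mouse 1168 Dnajc7 measured 65.2 FPKM (CTC) and 26.9 FPKM (tumor cell), and its part in the Cnp values was not tested.

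The other myelin surface and membrane genes were low throughout. Mag, an adhesion molecule of the innermost myelin layer, measured 0.290, 0.372 and 0.0142 FPKM in CTCs, against 0.340, 0.0399 and 0 FPKM in tumor cells. Only the value in the CTC of mouse 1168 was above the receptor level, and it can hold at most 26.4 fragments. Mog, a surface protein that appears late on finished myelin, was listed at 0 in 5 cells and at 0.0877 FPKM in 1 cell, the mouse 1157 CTC, at most 3.57 fragments. Mal, a membrane-sorting protein of myelin that T cells also make, measured 0.101, 0 and 0.0759 FPKM in CTCs, against 0, 0.817 and 0 FPKM in tumor cells. None of the Mog and Mal values was above the receptor level of its cell.

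Of the regulators, Gpr17 differed between the cells of mouse 1168, while Myrf was low in both. Gpr17, the receptor of premyelinating cells that holds back their maturation, measured 0.0145, 0.113 and 0.00464 FPKM in CTCs, against 0.188, 10.3 and 0.00484 FPKM in tumor cells. A single cell, the tumor cell of mouse 1168, was above its receptor level. In fragments the CTCs held 1.98, 17.98 and 1, and the tumor cells 10.9, 2865 and 1. The difference in mouse 1168 was -3.34 (CTC minus tumor cell, log2(FPKM + 1)), -5.60 with a pseudocount of 0.1 and -1.58 with a pseudocount of 5, for 1 library against 1 other with no replicate check. Exons of Lims2, on the opposite strand, cover 3.62% of the exon bases of Gpr17. In mouse 1168 Lims2 differed in the same direction, with 2.33 FPKM (CTC) and 16.2 FPKM (tumor cell), and its part in the Gpr17 difference was not tested.

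Myrf, the factor that turns on the myelin genes, was low in every cell. It measured 0.109, 0.154 and 0.0695 FPKM in CTCs, against 0.104, 0.266 and 0.218 FPKM in tumor cells. The CTC of mouse 1168 was just above its receptor level of 0.149 FPKM, with at most 26.7 fragments, and the other 5 values were below. The tumor cell of mouse 1168 had the highest FPKM, at most 81.4 fragments, although its Cldn11 reached 2920.0.

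The design asks whether CTCs and tumor cells differ in these genes over the 3 mice. No gene of the set passed the test. By limma on log2(FPKM + 1), with the pairing of cells by mouse left out, 0 of 4165 genes passed an adjusted p of 0.05 (0%). In that fit 7 genes had an unadjusted p under 0.05, none of them in the set. With the pairing left out, differences between mice enter the SE. A gene entered with at least 3 cells at 1 FPKM or more, and of the 9 only Mbp qualified, through both cells of mouse 1168 and the tumor cell of mouse PDGF1. Its difference was -1.31 (SE 1.28, adjusted p = 0.9999, limma), lower in the CTC in 3 of 3 mice, where the median of all genes tested was -0.06. Being lower in 3 of 3 mice was shared by 15.3% of the 4165 genes, and 7.39% were higher in 3 of 3. Groups without overlap made up 1.3% of them with CTCs below and 0.264% with CTCs above. With a pseudocount of 0.1 the Mbp difference was -2.10, and with a pseudocount of 5 it was -0.57.

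Without a filter on low values all 9 genes entered, among 32679 rows, and 0 rows passed (36 with an unadjusted p under 0.05). The difference was -1.17 for Mobp (SE 0.74, adjusted p = 0.992, limma), -1.19 for Gpr17 (SE 0.97), -0.62 for Cldn11 (SE 1.66) and -0.45 for Cnp (SE 1.49). It was -0.21 for Mal, -0.11 for Myrf, 0.12 for Mag and 0.04 for Mog. Mbp, Mobp, Cnp and Gpr17 were lower in the CTC of all 3 mice, as were 12.4% of the 32679 rows, and 0 of the 9 were higher in all 3, as were 3.48%. For Gpr17 this includes mouse PDGF1, where each cell held 1 fragment. The Cldn11 difference moved with each cell left out. It was -0.23, -1.56 and -0.07 without the CTC of mouse 1157, 1168 or PDGF1, and -1.28, 0.95 and -1.53 without the tumor cell of those mice, and 0.01 without both cells of mouse 1168. Cnp behaved likewise, at 0.05, -1.54 and 0.15 without each CTC and -0.86, 0.59 and -1.06 without each tumor cell. The Gpr17 difference was -0.07 without the tumor cell of mouse 1168 and -1.81 without that of mouse PDGF1. Mobp was at -0.78 without the tumor cell of mouse 1157.

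With the mouse as a block, Mbp had the same difference with an SE of 0.71 (unadjusted p = 0.0649, adjusted p = 0.935, limma). The block and no filter together, a setting added after seeing the data, gave unadjusted p values under 0.05 for Mbp (0.0390) and Mobp (0.0453). Both had adjusted p = 0.731 (limma). In that fit 214 of all 32679 rows had an unadjusted p under 0.05. The block called 1 gene of 4165 (0.024%), which is not in the set. With it 217 of the 4165 genes had an unadjusted p under 0.05, none of them in the set.

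**Figure D3:**
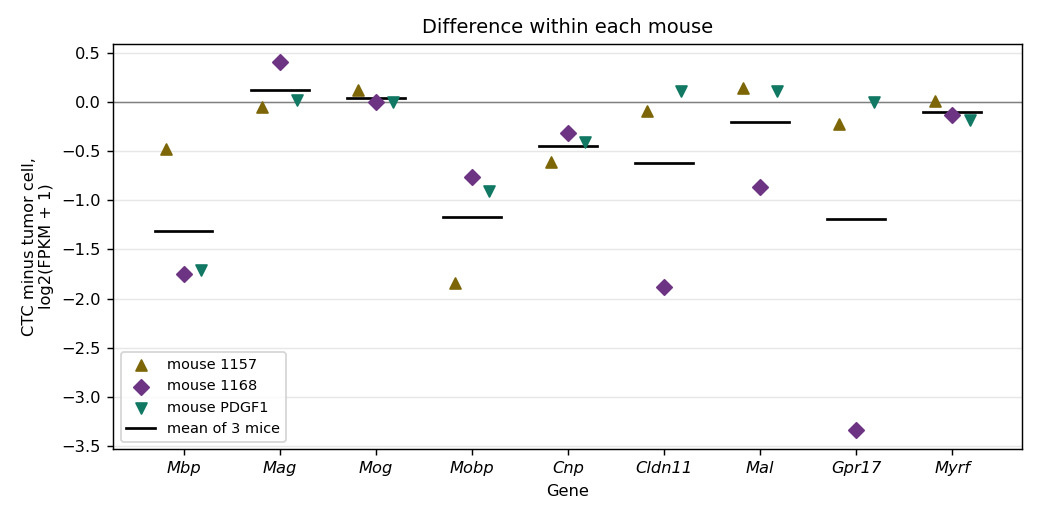
Difference of CTC minus tumor cell on the log2(FPKM + 1) scale (vertical axis) for each of the 9 genes, with a symbol per mouse and a bar at the mean of the 3 mice. Mbp, Mobp and Cnp are below 0 in all 3 mice, and the largest fall, -3.34, is that of Gpr17 in mouse 1168.

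Within mouse 1168, 4 of the 9 genes were at 1 FPKM or more in either cell. The CTC was lower by at least 1 for Gpr17 (-3.34), Cldn11 (-1.88) and Mbp (-1.74), and by 0.32 for Cnp. Of all 12396 genes measured that way in this mouse, 24.9% fell short of the tumor cell by at least 1 and 22.7% exceeded it, with a median of 0.04. Gpr17 met the level only through the tumor cell, so its direction follows from how it was counted. With a pseudocount of 5 the Mbp difference in this mouse was -0.90. In mouse 1157 only Mobp was measured (-1.84), where 37.1% of 5961 genes were lower by at least 1 and 29% higher. It ran from -4.60 to -0.66 under other pseudocounts and rescaling. In mouse PDGF1 only Mbp was measured (-1.71), where 59.9% of 4042 genes were lower by at least 1 and 23.7% higher. It ran from -2.80 to -0.68 under the same alternatives. Both genes met the level only through the tumor cell, so their directions follow from that filter too.

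Other myelin genes in mouse 1168 did not all go the way of the set. Of 20 such genes, 12 were at 1 FPKM or more in either cell, with 3 at least 1 above the tumor cell in the CTC and 6 at least 1 below. Tspan2, a tetraspanin of myelinating cells, was at 0.0808 FPKM in the CTC against 3.11 FPKM in the tumor cell. Ugt8a, which makes the myelin lipid galactosylceramide, was at 0.498 against 3.54 FPKM, and Sirt2, a deacetylase abundant in myelin, at 45.3 against 104.8. The other direction was taken by Bcas1, a marker of early myelinating cells, at 59.1 FPKM in the CTC against 4.71 FPKM in the tumor cell, by Trf, transferrin, at 25.0 against 2.25, and by Pllp, plasmolipin, at 21.8 against 3.53. Opalin, a membrane protein of mature oligodendrocytes, was at 3.23 against 2.06 FPKM, and Ermn, a cytoskeletal protein of the same stage, was at 0 against 0.0619.

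Several factors that specify the lineage were high in both cells of mouse 1168, where Myrf was low. Olig1 was at 199 FPKM in the CTC against 138 FPKM in the tumor cell. Sox10, which acts with Myrf on myelin genes, went the other way, at 6.54 FPKM in the CTC against 18.3 FPKM in the tumor cell. Zfp536 was at 21.8 against 22.7 FPKM and Tcf7l2, which marks the premyelinating stage, at 4.79 in each cell. Zfp488, a promoter of differentiation, was at 0.345 against 0.458 FPKM. Of 9 factors matched by name out of 10 listed, 8 were measured, with 4 at least 1 above the tumor cell in the CTC and 1, Sox10, at least 1 below. The 4 were Olig2, at 42.5 FPKM in the CTC against 10.3 FPKM in the tumor cell, and Nkx2-2, at 27.2 against 0.752. Sox8 was at 10.96 against 0.878 FPKM, and Chd7 at 14.9 against 3.61. The CTC had 9 of the 9 above its receptor level and the tumor cell 6. Nkx2-2, Sox8 and Zfp488 were below that level in the tumor cell.

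Genes listed here as restraints on maturation, called restraining genes below, were mixed in mouse 1168. Whether each of them, Ptn and Tcf4 included, acts as a restraint was not tested. Of 8 measured, the CTC exceeded the tumor cell by 1 or more for 3 and fell short for 2. Lingo1, a membrane inhibitor of differentiation, was at 10.96 FPKM in the CTC against 0.245 FPKM in the tumor cell, and Ptn, a secreted ligand of progenitors, at 117 against 13.7. Hes1, a repressor downstream of Notch, was listed at 0 in the CTC and was at 18.9 FPKM in the tumor cell. Id2, an inhibitor of Olig factors, was high in both, at 94.1 and 75.6 FPKM. Progenitor markers were measured for 10 of 10 genes, with 9 at least 1 above the tumor cell in the CTC and a median of 1.67. C1ql1 was the exception, at 7.53 against 10.9 FPKM. Of all genes measured in mouse 1168, 22.7% exceeded the tumor cell by at least 1, with a median of 0.04. Mouse PDGF1 had 3 progenitor markers measured, with 3 lower in the CTC, 2 of them by at least 1, and a median of -1.90. Each met the level only through the tumor cell, below its receptor level. Of all genes there, 59.9% were lower by at least 1. Mouse 1157 had 3 measured, 2 higher in the CTC and 1 lower. Each comparison is again 1 library with 1 other.

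**Figure D4:**
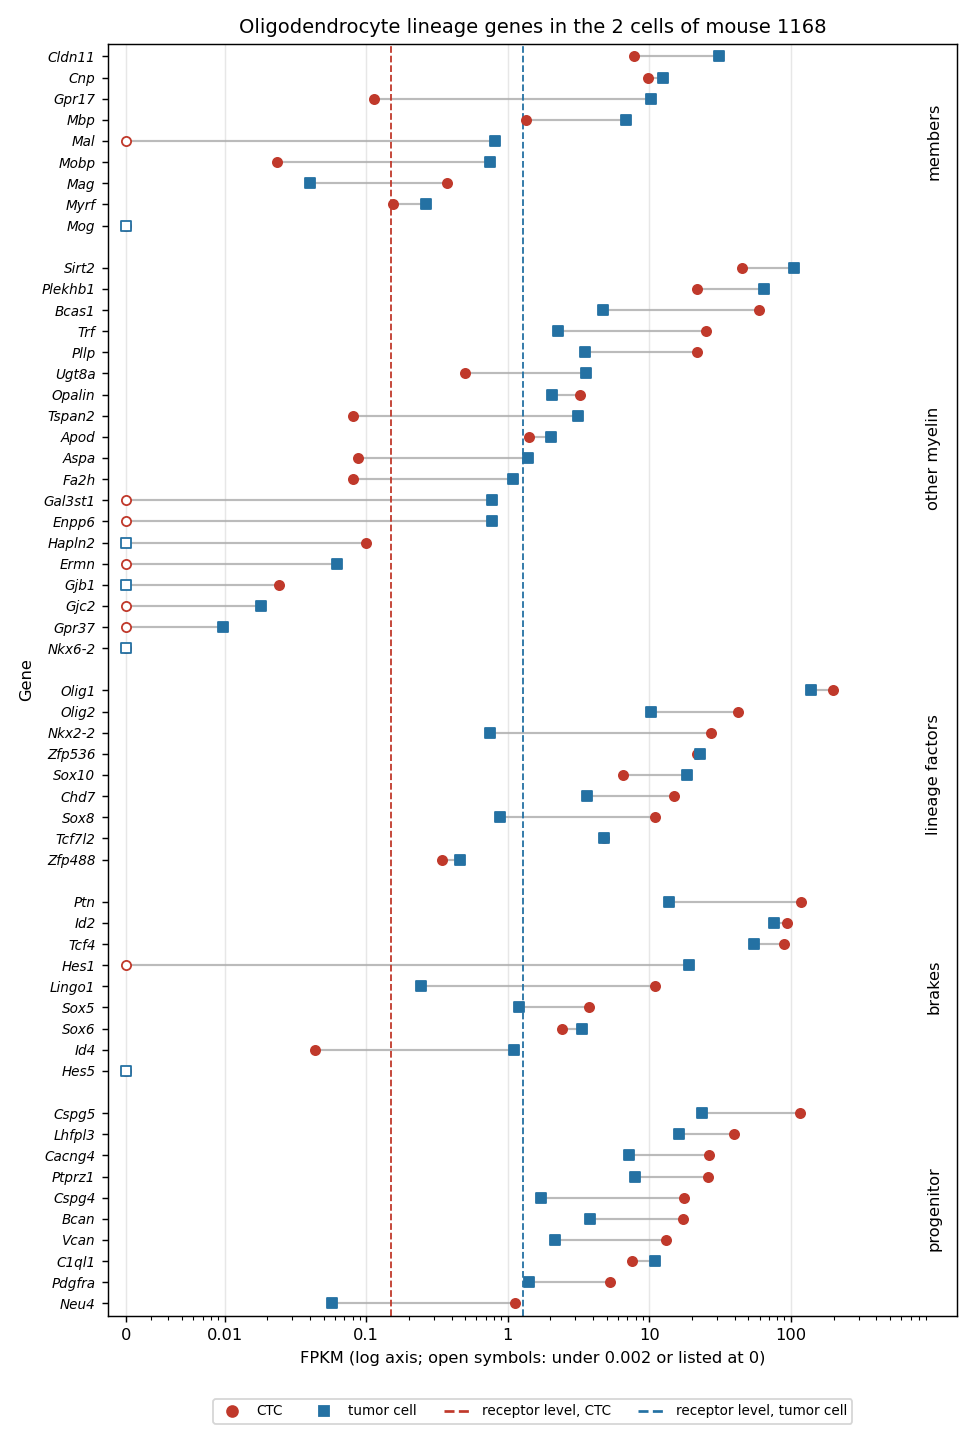
FPKM (log axis) of genes in the CTC (circles) and tumor cell (squares) of mouse 1168, with dashed lines at each cell's receptor level. The genes are the 9, most of the other myelin genes, lineage factors, genes listed as restraints on maturation (brakes) and progenitor markers. Open symbols mark values under 0.002 FPKM or listed at 0, and squares cover circles where both coincide. Progenitor markers stand higher in the CTC for 9 of 10 genes, while Cldn11, Gpr17 and Mbp stand higher in the tumor cell.

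Over the 3 mice 0 of these genes passed in limma, and without the block 0 had an unadjusted p under 0.05. Of those with enough values to be tested, 3 of 3 other myelin genes, 5 of 5 lineage factors, 4 of 4 restraining genes and 4 of 4 progenitor markers had a positive difference, with smallest adjusted p = 0.9999 in each list (limma). The medians were 0.22, 0.70, 0.55 and 0.50 in that order, beside -0.06 for all genes tested, of which 52.9% were negative. With the mouse as a block Nkx2-2, a lineage factor, had a difference of 1.45 with an unadjusted p of 0.048 (adjusted p = 0.935, limma). The directions of the lists changed with single cells left out and with the scale. Without the CTC of mouse 1168, 0 of 2 lineage factors, 0 of 2 restraining genes and 0 of 2 progenitor markers still tested were positive. Without the tumor cell of mouse PDGF1, 1 of 5 lineage factors (median -0.10), 0 of 2 other myelin genes, 2 of 3 restraining genes and 2 of 3 progenitor markers were positive. Without the tumor cell of mouse 1157, the counts were 1 of 4 lineage factors (median -0.11), 1 of 2 other myelin genes, 2 of 4 restraining genes and 2 of 4 progenitor markers. With all cells rescaled to the same FPKM sum, 1 of 3 other myelin genes, 3 of 5 lineage factors, 3 of 4 restraining genes and 2 of 4 progenitor markers were positive. With no filter on low values, 7 of 20 other myelin genes were positive, with a median of -0.25. Over all genes tested, the negative share in these fits was 79.4%, 67.7%, 61.4%, 69.3% and 59.1%, in the order given, beside 52.9% above. Whether the lists changed more or less than all genes was not tested.

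The summed FPKM of 14 microglia and macrophage markers was, like Cldn11, Gpr17 and Mbp, highest in the tumor cell of mouse 1168. It was 14.8, 244 and 3.74 in CTCs and 14.3, 2541 and 25.7 in tumor cells. In mouse 1168 the CTC had 6 of the 14 above its receptor level and 2 listed at 0, and the tumor cell had 12 above and 0 listed at 0. At 1 FPKM or more the counts were 5 and 13. Of all protein-coding genes in this mouse, 49.7% (CTC) and 43.7% (tumor cell) were above the receptor level. At 1 FPKM or more the shares were 40.1% and 46.3%. There Lyz2 measured 174 FPKM (CTC) and 1202 FPKM (tumor cell), Ctss 19.4 and 672 FPKM, and Tyrobp 28.4 and 346 FPKM, each with the CTC given before the tumor cell. Their part in the differences of Cldn11, Gpr17 and Mbp was not tested. Schwann cells, which form the myelin of peripheral nerves and also make Mbp, were followed by 7 markers that summed to 0.462 to 27.3 FPKM in CTCs and 1.10 to 55.0 FPKM in tumor cells. In mouse 1168 the CTC had 5 of the 7 above its receptor level and 2 listed at 0, and the tumor cell had 3 above and 0 listed at 0. These levels are unlike, 0.149 FPKM (CTC) and 1.27 FPKM (tumor cell), and at 1 FPKM or more each cell had 3 of the 7. Pmp22, which many cells make, measured 15.5 FPKM (CTC) and 45.1 FPKM (tumor cell) there, Cdh19 6.23 and 6.22 FPKM, Ncmap 4.47 and 0.0707 FPKM, and Egr2 0.804 and 3.05 FPKM. Their part in the values of Mbp and the other genes was not tested. The 7 T cell markers summed to 0.168 to 18.3 FPKM in CTCs and 0.622 to 3.73 FPKM in tumor cells. In the CTC of mouse 1157, 2 of them were above the receptor level, Cd247 at 1.42 FPKM and Cd3e at 0.889 FPKM. Of all protein-coding genes in that cell, 12.4% were above it. Mal, which T cells also make, was at 0.101 FPKM there. The CTC of mouse 1168 also had 2 of the 7 above its level, Thy1 and Cd247 (0.352 FPKM), and the tumor cell of that mouse had 1. The sum of 18.3 was nearly all Thy1, with 17.8 FPKM in the mouse 1168 CTC. Markers of red cells and platelets summed to at most 0.362 FPKM in CTCs and 0.421 FPKM in tumor cells, those of vessels to at most 0.973 and 5.98 FPKM, those of neurons to at most 9.83 and 6.79 FPKM, and those of astrocytes to at most 109 and 368 FPKM. Nearly all of both astrocyte sums was S100b, which oligodendrocyte lineage cells also express, and Gfap was at most 0.0152 FPKM in CTCs and 0.609 FPKM in tumor cells.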

How the data were processed

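The authors deposited a table of FPKM values, per its file name, with 1 column per cell and 45038 rows. Per the submitters' processing notes, tools included STAR 2.4.2a and Cufflinks 2.2.1, with GRCm38 as the build. No source used here gives the treatment of reads that match several genes. The protocols describe 3 rounds of amplification in which RNA was copied to cDNA and transcribed again, followed by stranded TruSeq libraries. Rows with a name turned into a date (27) or repeated (207 more) were dropped, which left 44804, of which 41450 matched GENCODE mouse release 21, the source of gene coordinates, classes and transcript lengths.

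The value of 1 fragment was found per cell as the densest value of FPKM times length, less an offset of 190 to 230 bases, over single-transcript genes of at least 600 bases. It assumes the same annotation as the authors', and gives fragments for a gene with 1 transcript and an upper bound for others. Values at exactly 0 are reported as listed at 0.

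CTCs and tumor cells were compared with limma 3.58.1 (R 4.3.3) on log2(FPKM + 1), two-sided, with the variance moderated along its trend with the mean, with Benjamini-Hochberg adjustment over all genes tested and a threshold of 0.05. SEs follow the variance trend over all genes. Group means are given with SDs. The step was run on simulated data with a smaller spread than in these cells, as a check of the code. That run does not show what size of difference could be detected here. Other steps used Python 3.11.15 with scipy 1.17.1, pandas 2.3.3 and numpy 2.4.6, and plots were drawn in matplotlib 3.10.9.

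Cells are paired by mouse, per the labels. The deviations of a mouse's CTC and tumor cell from their group means correlated, over genes, at 0.178 (1157), 0.689 (1168) and 0.428 (PDGF1), while the PDGF1 CTC and the 1157 tumor cell reached 0.422. Blocking by mouse was tried as an alternative, beside other pseudocounts, filters and scalings and leaving out cells or mice. The rule for named genes took all 9 genes, any of the other myelin, lineage, restraining and progenitor genes, and up to 5 of the highest genes of each marker list. Lims2, Dnajc7 and the Cldn11 promoter were added after values were seen. Some listed genes are counted in their lists but not reported here by name. Of the 9 genes, 6 were in the RefSeq promoter table. The members and lists were chosen with earlier results of these data known. Motif and fragment steps are descriptions without a test.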

Additional observations from a re-analysis of the deposited data

How the results depend on the processing

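No gene of the 9 passed the threshold under any alternative in which at least 1 was tested, and the count over all genes was 0 except with the replicate block, where 1 gene passed. Without the CTC or the tumor cell of mouse 1168, without the tumor cell of mouse PDGF1, without mouse 1168 or mouse PDGF1, and with 1 FPKM required in all 6 cells, none of the 9 met the filter. Leaving out single cells gave 0 called genes each time, from a lowest of 0 to a highest of 0. The block and no filter together, added after seeing the data, called 0 of 32679 rows. Mbp stayed negative in 11 of 11 alternatives, from -2.40 to -0.57, and Mobp and Gpr17 in 14 of 14, from -3.21 to -0.36 and from -2.31 to -0.07. Cldn11 was negative in 12 of 14 and Cnp in 11 of 14. Removing the filter or adding the block cannot change these differences, so such alternatives only repeat the main value. For Mbp, fits in which it did not meet the filter are not counted, among them those without the tumor cell of mouse 1168 or PDGF1. For the other genes leaving out those cells is counted, so the tallies are not alike. Rescaling all cells to the same FPKM sum moved the median of all genes tested to -0.79, and a pseudocount of 0.1 moved it to -0.31, beside -0.06. Mbp stood at -2.40 and -2.10 in these fits.

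Genes at the detection level changed with that level. At 0.1 FPKM in place of 1 FPKM the CTCs held 7, 6 and 2 of the 9 (mice 1157, 1168, PDGF1), and the tumor cells 7, 7 and 4. At 5 FPKM the tumor cells of mice 1157 and PDGF1 held 0 in place of 1. Above the receptor level the CTC of mouse 1168 held 5 in place of 3, and the tumor cell of mouse PDGF1 held 0 in place of 1. Depth was 11696376 to 55844585 fragments, but amplification means that fragments do not give the counting error of molecules.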

Other observations

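Receptor genes of the nose, which served as the background, were also read in fragments. Of the 1447 genes, 32.2%, 8.22% and 14.997% were above 0 in CTCs (mice 1157, 1168, PDGF1), and 20.7%, 37.0% and 24.3% in tumor cells. Among the 220 with a single transcript, the 99th percentile came to 17.3, 4.73 and 130 fragments for CTCs and to 31.8, 130 and 96.3 fragments for tumor cells. The highest of the 220 reached 109, 511 and 253 fragments in CTCs and 141, 242 and 638 fragments in tumor cells. The bounds for Mobp in tumor cells, 113, 128 and 114 fragments, were below the highest receptor gene of the same cell in each case, while Cldn11 and Gpr17 in the tumor cell of mouse 1168 were above it.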
